A study of Mus musculus with 18 samples.

Results

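The genes described here encode the proteasome. They were chosen by symbol, as entries starting with Psma, Psmb, Psmc, Psmd, Psme or Psmf followed by a number, leaving out Psmb8 and Psmb9, with a summed count of at least 30 over the 18 libraries. The rule gave 40 of the 24781 entries of the table. By role they are 15 subunits of the core particle (7 alpha and 8 beta), 17 subunits of the regulatory particle (6 ATPases and 11 others), 2 assembly chaperones of the regulatory particle (Psmd5 and Psmd10), 5 genes of other activators (Psme1, Psme2, Psme2b, Psme3 and Psme4) and the inhibitor gene Psmf1. The rule used the summed count and no difference between groups. The members nearest to its threshold were Psmd10 with 48 and Psmf1 with 51 counts over all libraries, and the nearest genes outside it were Psmd9 with 14 and Psmc3ip with 3 counts, Psmc3ip being a recombination factor that only shares the name stem. Psma8 and Psmb11, the testis and thymus forms of core subunits, had 1 count each.

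The proteasome is the protease that degrades ubiquitin-tagged proteins. Its barrel-shaped core particle is built of rings of alpha subunits, which gate the entry, and rings of beta subunits, of which Psmb5, Psmb6 and Psmb7 carry the catalytic sites; the regulatory particle caps the barrel, recognises the ubiquitin chain, removes it and unfolds the protein with a ring of ATPases. In cells exposed to interferon, the catalytic subunits are exchanged for the immunoproteasome subunits Psmb8, Psmb9 and Psmb10, and PA28, an activator made from Psme1 and Psme2 that needs no ubiquitin, can cap the barrel instead, which changes the peptides handed to antigen presentation. In lymphocytes these interferon-inducible forms are usually present also at rest.

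The study profiled group 2 innate lymphoid cells (ILC2), tissue lymphocytes that make type 2 cytokines, to compare mice with and without CD45, the receptor tyrosine phosphatase encoded by Ptprc. The 6 groups were lung CD45 KO, lung control, mature bone marrow CD45 KO, mature bone marrow control, immature bone marrow CD45 KO and immature bone marrow control ILC2, with 3 libraries each. The labels give the genotype as CD45 KO x Rag2 KO in the CD45 KO groups and as Rag2 KO in the control groups, so that all mice lacked Rag2 and with it T and B cells, and the titles call the control samples WT. Neither age nor a treatment is given. The labels name 200 sorted cells per sample and 100 cells per tube, and nothing says whether the libraries of a group came from separate mice, so that p-values measure only the spread between these libraries, which may be technical.

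Library totals lay between 68077 and 122250 counts and the number of genes with a count between 7189 and 8793, so that 3 counts correspond to at most 44.7 CPM (counts relative to the scaled library total). Ptprc was 153, 112 and 229 CPM in lung CD45 KO libraries, against 628, 546 and 563 CPM in lung control libraries, and averaged 93.0 CPM in immature CD45 KO libraries, against 389 CPM in immature control libraries. Among the libraries labelled mature CD45 KO it was 238, 101 and 88.0 CPM, against 253, 458 and 541 CPM in mature control libraries, so that replicate 1 under that label goes against it, close to the lowest control. In mature control replicate 1 the neutrophil markers S100a8, S100a9 and Ly6g summed to 2116 CPM, against at most 97.2 CPM in any other library, and Ly6g was at 0 in all 6 groups. All 10 ILC2 markers examined were detected in every group, while the T cell, B cell and NK cell markers examined summed to at most 52.8 CPM per list in any library, with Ms4a1, Ncr1 and Eomes at 0 in every group. Lists for mast cells, erythroid cells, epithelium and endothelium reached at most 74.5 CPM. The 6 myeloid markers summed to 153 CPM in lung CD45 KO replicate 1 and to at most 11.1 CPM elsewhere. The part of these libraries in the results was not tested beyond leaving each out. In sorted bulk samples, fewer cells of a type and less RNA per cell cannot be told apart.

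The start regions of some of the called genes are shown, of which Psme1 and Psmb3 hold a match to the interferon-stimulated response element. Each run holds the 250 bases before and the first 30 bases from the transcription start in the RefSeq annotation of GRCm38.p6 (mm10), written from 5′ to 3′ along the gene, with matches to the 4 searched motifs in capitals. Psmb10, an interferon-inducible gene called in 1 comparison, is not shown and had 0 matches over the same bases. A second annotated start of Psme2 is not shown either.

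Psme1, chr14:55578244-55578523, plus strand: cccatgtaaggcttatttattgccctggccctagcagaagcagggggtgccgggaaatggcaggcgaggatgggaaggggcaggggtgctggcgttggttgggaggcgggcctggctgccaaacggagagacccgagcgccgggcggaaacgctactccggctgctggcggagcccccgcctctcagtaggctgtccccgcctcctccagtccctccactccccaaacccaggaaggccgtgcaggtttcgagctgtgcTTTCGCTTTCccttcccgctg
Psme2, chr14:55591072-55591351, minus strand: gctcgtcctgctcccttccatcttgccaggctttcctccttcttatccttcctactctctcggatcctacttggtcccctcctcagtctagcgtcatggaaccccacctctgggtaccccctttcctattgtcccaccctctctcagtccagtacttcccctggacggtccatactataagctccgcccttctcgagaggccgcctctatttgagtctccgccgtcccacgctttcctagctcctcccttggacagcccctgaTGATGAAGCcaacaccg
Psmb3, chr11:97703184-97703463, plus strand: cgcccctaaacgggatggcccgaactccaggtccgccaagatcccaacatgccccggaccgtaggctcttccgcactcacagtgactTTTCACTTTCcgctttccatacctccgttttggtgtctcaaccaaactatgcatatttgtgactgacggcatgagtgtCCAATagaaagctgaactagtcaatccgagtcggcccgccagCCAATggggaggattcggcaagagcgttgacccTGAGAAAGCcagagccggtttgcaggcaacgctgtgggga
Psma1, chr7:114276087-114276366, minus strand: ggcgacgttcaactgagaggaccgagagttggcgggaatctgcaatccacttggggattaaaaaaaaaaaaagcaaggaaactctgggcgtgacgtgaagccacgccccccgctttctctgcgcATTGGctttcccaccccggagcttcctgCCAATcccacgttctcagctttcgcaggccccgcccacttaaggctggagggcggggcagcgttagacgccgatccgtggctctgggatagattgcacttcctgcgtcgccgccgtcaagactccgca
Psmc1, chr12:100109952-100110231, plus strand: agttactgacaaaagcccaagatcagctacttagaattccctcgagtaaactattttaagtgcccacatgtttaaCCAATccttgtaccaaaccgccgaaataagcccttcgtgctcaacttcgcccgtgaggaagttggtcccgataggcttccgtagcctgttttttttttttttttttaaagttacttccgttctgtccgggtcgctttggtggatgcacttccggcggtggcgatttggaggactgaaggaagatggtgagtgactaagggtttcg

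The motifs were searched on both strands over 300 bases (250 before to 50 after the start) in the 34 members that have an entry in the RefSeq table, and in all 27025 genes there. The letters were CCAAT, TGANNNNGC (a loose form of the antioxidant response element core), GAAA followed after any 2 bases by GAAA (the interferon-stimulated response element) and TTCNNNGAA (the interferon gamma activated site). The interferon-stimulated response element was found in 3 of 34 members (8.82%), namely Psme1, Psmb3 and Psmd4, against 3.99% of all genes. It begins at position 10 of Psme1 and at position -163 of Psmb3, counted from the start, on the minus strand of both runs. TGANNNNGC was found in 17 of 34 members, 8 of them among the 12 core members with an entry, against 45.0% of all genes. CCAAT was found in 12 members (35.3%), against 41.1% of all genes, and Psmb3 and Psma1 have a pair of it each. TTCNNNGAA was found only in Psmd2 among the members (2.94%), against 9.55% of all genes. No 2 motifs overlap in the runs shown. A match is a stretch of letters and no evidence of binding.

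By the GENCODE M21 annotation of the same build, the 40 members lie on 15 chromosomes, each with a single entry. Psme1 (chr14:55578123-55581529, plus strand) and Psme2 (chr14:55587441-55591113, minus strand) are neighbours. Psme2b (chr11:48945354-48946190) is an intronless retrogene copy of Psme2, and the transcripts of the pair are the same in 711 of 716 aligned bases, or 99.3%, and in all of the last 200. Since the libraries were primed at the poly(A) tail, reads of one can have been counted for the other, and the levels of Psme2 and Psme2b are uncertain as separate values. Counts were not divided by gene length, so that the CPM of a gene is compared between groups and not with that of another gene.

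Summed over the 40 members, the proteasome took 0.35 ± 0.0212% of the counts of lung CD45 KO libraries and 0.351 ± 0.026% of those of lung control libraries (mean ± SD, n = 3 in every group). In mature marrow the share was 0.38 ± 0.0321% in the libraries labelled CD45 KO and 0.372 ± 0.0107% in control libraries. In immature marrow it was 0.409 ± 0.007% in CD45 KO libraries and 0.332 ± 0.0105% in control libraries, and these are the only genotype pair whose libraries did not overlap, the CD45 KO libraries being higher. Scaled with TMM factors, the sums were 4357, 4179.7 and 4264 CPM in immature CD45 KO libraries, against 3129, 3225 and 3539 CPM in immature control libraries. The order held with DESeq2 size factors and with total counts alone. The 10 ILC2 markers separated the same groups in the other direction, summing to 6259, 6542 and 5798 CPM in immature CD45 KO libraries, against 7496, 8187 and 6883 CPM in immature control libraries, and their part in the result was not tested.

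The core particle members summed to 1962, 1947 and 2090.1 CPM in immature CD45 KO libraries, against 1349, 1365 and 1855 CPM in immature control libraries. Every CD45 KO library was higher than every control library, the highest control lying close under the lowest CD45 KO library. The regulatory particle members summed to 1242, 1246 and 1134 CPM in immature CD45 KO libraries, against 995, 1085 and 1013 CPM in immature control libraries. These did not overlap either, although with total counts and no scaling factor they did. In mature marrow the core sums were 1876 ± 378 CPM in libraries labelled CD45 KO and 1752 ± 62.7 CPM in control libraries, and in lung 1784 ± 135 CPM in CD45 KO and 1814 ± 161 CPM in control libraries, with overlap in both tissues. No test was made of sums over members.

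**Figure D1:**
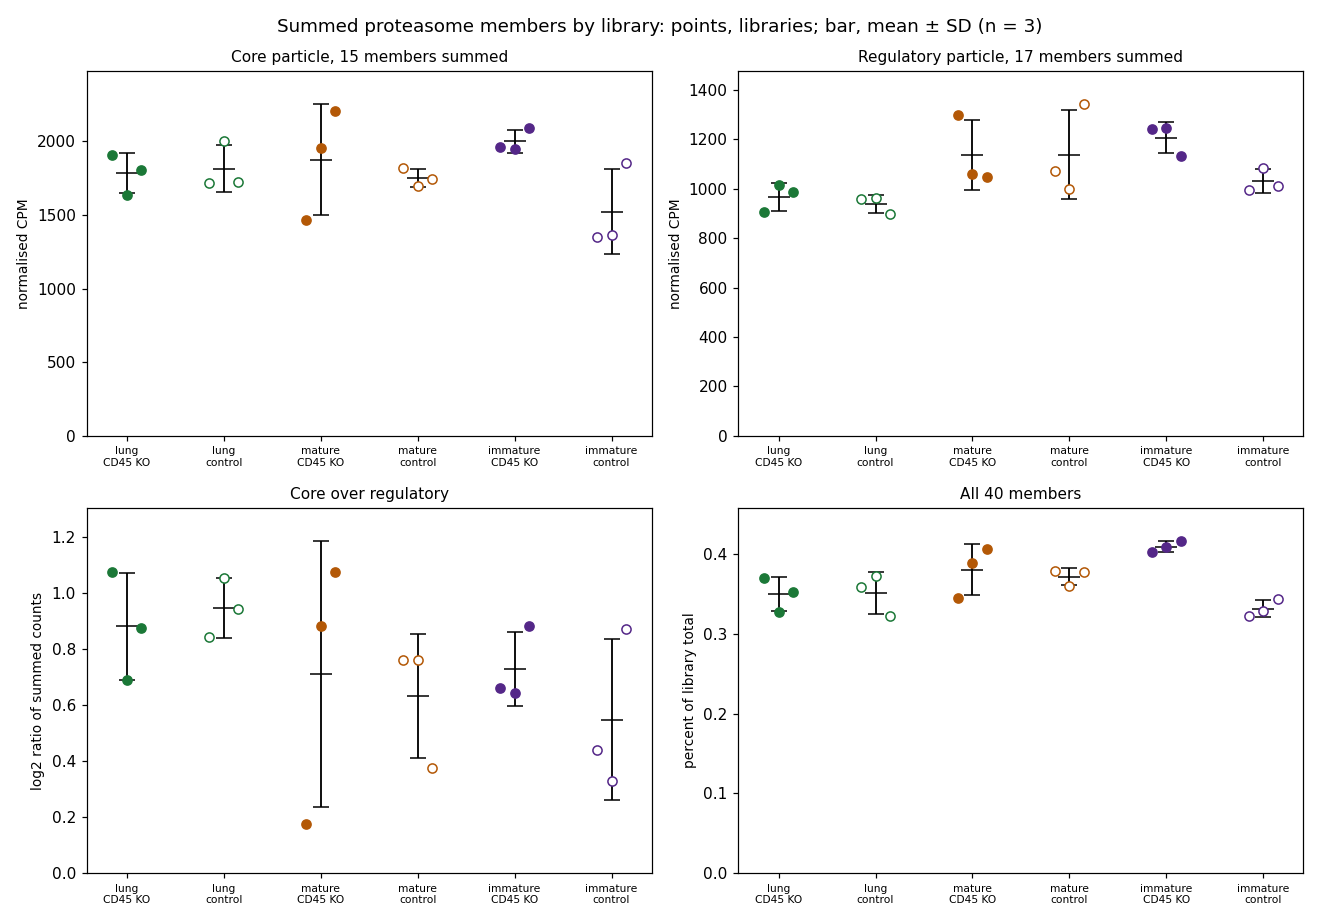
Summed proteasome members by library in 6 groups of ILC2, lung to the left, filled points for CD45 KO and open points for control, with mean ± SD (n = 3): core and regulatory particle in normalised CPM, the log2 ratio of their summed counts, and the 40 members as percent of the library total. In the last panel the immature CD45 KO libraries sit between 0.402% and 0.416%, all higher than the immature control libraries at 0.323% to 0.343%.

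The ratio of core to regulatory counts compares the particles within each library. Its log2 was 1.08, 0.69 and 0.88 in lung CD45 KO libraries and 0.84, 1.06 and 0.94 in lung control libraries. It was 0.17, 0.88 and 1.08 in libraries labelled mature CD45 KO and 0.76, 0.76 and 0.38 in mature control libraries. It was 0.66, 0.64 and 0.88 in immature CD45 KO libraries and 0.44, 0.33 and 0.87 in immature control libraries. The genotypes overlapped in all 3 populations, with mean differences (CD45 KO minus control) of -0.066 in lung, 0.078 in mature and 0.18 in immature ILC2. The pooled SD between libraries of a group was 0.27, of which counting error alone gives a median of 0.19, so that differences of this size were not detectable at this depth. The lowest ratio of all was that of mature marrow replicate 1 with the CD45 KO label, and without it the mature difference was 0.35. Lung control libraries were higher than mature control libraries by 0.31 without overlap, while lung and marrow overlapped in the other 3 pairs, with mean differences of 0.40 against immature control, 0.17 against mature CD45 KO and 0.15 against immature CD45 KO libraries.

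Loss of CD45 changed no proteasome member past the threshold of the test in any of the 3 populations, and in immature ILC2 most members were higher in CD45 KO without passing it. For each population, edgeR's quasi-likelihood test ran over all 1916 genes with enough counts, of which 18 were members: Psma1, Psma2, Psma3, Psma4, Psma5 and Psma7, Psmb1, Psmb3, Psmb4, Psmb5 and Psmb10, Psmc1 and Psmc3, Psmd2 and Psmd8, and Psme1, Psme2 and Psme2b. None of the 18 passed an adjusted p of 0.05 (Benjamini-Hochberg over all genes) in immature ILC2, where 1.67% of all genes tested did. None passed in mature ILC2 (0.261% of all genes) or in lung ILC2 (2.51% of all genes). At an unadjusted p under 0.05 the test gave 6 members in immature ILC2, all higher in CD45 KO (Psma1, Psma3, Psma7, Psme1, Psme2 and Psme2b), 1 in mature ILC2 (Psmb3, higher) and 2 in lung ILC2 (Psme1 higher, Psmc3 lower), where 12.3%, 9.03% and 14.5% of all genes tested had such a p. In a fit over the 6306 genes with a summed count of at least 30, which holds all 40 members, the count past the adjusted threshold was likewise 0 in each population, where 0.539%, 0.127% and 0.65% of all genes passed, with 9, 3 and 3 members at an unadjusted p under 0.05 in immature, mature and lung ILC2, where 8.09%, 7.15% and 7.93% of all genes had one. In mature and lung ILC2 the members' shares were near or under those of all genes. DESeq2's Wald test gave 0 of 18 in each.

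In the fit of 6306 genes the median log2 fold change (CD45 KO over control) was 0.45 over the 40 members, 28 of them positive, against 0.0076 over all genes, 50.6% of them positive. Leaving out each of the 6 immature libraries in turn, the members' median stayed between 0.31 and 0.52, with 29 to 32 positive. These reruns took library totals over the 6306 genes alone, unlike the main fit, and the median over all genes was then 0.020 to 0.069. By role the median was 0.35 over the 7 alpha subunits, 0.47 over the 8 beta subunits, 0.42 over the 6 ATPases, 0.30 over the 11 other regulatory subunits and 0.53 over the 5 other activators. In 8 members every immature CD45 KO library was higher than every control library, and in 0 members lower, where 13.8% of all genes did not overlap in one direction or the other. These 8 were Psma1, Psma3, Psma7, Psmb4, Psmb7, Psmd8, Psmd14 and Psme2b. The members share libraries and are no replicates of the condition, and they were not chosen independently of earlier results on these samples.

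Among the alpha subunits, which form the outer rings of the core, Psma3 was 237, 190.4 and 242 CPM in immature CD45 KO libraries, against 144, 103 and 171 CPM in immature control libraries. Psma1 was 98.6, 129.8 and 94.5 CPM in immature CD45 KO libraries, against 66.3, 31.0 and 73.2 CPM in immature control libraries. Both pairs of groups were separate. The log2 fold changes of 0.68 ± 0.30 (SE) for Psma3 and 0.95 ± 0.44 for Psma1 had adjusted p-values of 0.294 and 0.337 by edgeR's quasi-likelihood test.

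Among the catalytic beta subunits, Psmb7, which holds the trypsin-like site, was 49.3, 51.9 and 105 CPM in immature CD45 KO libraries, against 22.1, 31.0 and 12.2 CPM in immature control libraries, from 1 to 3 counts per control library. Its groups did not overlap and its log2 fold change in the fit of 6306 genes was 1.59 ± 0.61, with an adjusted p of 0.37 by edgeR. Psmb6, the caspase-like site, was 49.3, 43.3 and 31.5 CPM in immature CD45 KO libraries, against 66.3, 72.4 and 48.8 CPM in immature control libraries, so that its means lay in the other order, with overlap. Psmb5, the chymotrypsin-like site, was 108, 164 and 105 CPM in immature CD45 KO libraries, against 44.2, 124 and 122 CPM in immature control libraries. Its groups overlapped and the log2 fold change was 0.40 ± 0.39 (edgeR's quasi-likelihood test, adjusted p = 0.725). Psmb10, the interferon-inducible counterpart of Psmb7, averaged 185 ± 41.2 CPM in immature CD45 KO libraries and 138 ± 82.7 CPM in immature control libraries, with overlap and an adjusted p of 0.642 by edgeR's test.

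In the regulatory particle, Psmd14, the deubiquitinase that cuts the ubiquitin chain from the substrate, was 98.6, 95.2 and 105 CPM in immature CD45 KO libraries, against 77.4, 31.0 and 48.8 CPM in immature control libraries. In mature marrow its groups were separate in the other direction, with 11.9, 42.1 and 44.0 CPM in libraries labelled CD45 KO, against 89.4, 83.3 and 80.2 CPM in control libraries. The log2 fold changes were 0.97 ± 0.47 in immature and -1.15 ± 0.54 in mature ILC2, and neither they nor their difference of -2.12 ± 0.72 (mature minus immature) passed edgeR's test over 6306 genes (adjusted p = 0.591, 0.666 and 0.896). Psmd14 had 1 to 11 counts per library and was not among the 18 genes of the narrower test. Psmd1, a scaffold subunit of the regulatory particle, had the smallest p of all 40 members in the fit of 6306 genes, with 69.0, 138 and 126 CPM in immature CD45 KO libraries, against 11.1, 72.4 and 61.0 CPM in immature control libraries. Its groups overlapped, and the log2 fold change of 1.24 ± 0.46 had an adjusted p of 0.334 by edgeR. Psmd4, a ubiquitin receptor of the regulatory particle, averaged 69.3 ± 34.3 CPM in immature CD45 KO and 87.3 ± 41.5 CPM in immature control libraries, with overlap there and in the other populations.

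Psme2 and Psme2b gave the smallest p-values among the 18 tested members in immature ILC2. Psme2, the beta subunit of PA28, was 197, 164 and 158 CPM in immature CD45 KO libraries, against 55.3, 165 and 48.8 CPM in immature control libraries. Control replicate 2 alone reached the range of the CD45 KO libraries. The log2 fold change of 0.89 ± 0.35 had an adjusted p of 0.234 by edgeR's quasi-likelihood test, and without control replicate 2 it was 1.70 with an adjusted p of 0.0476, the only member call that leaving out 1 library made in this comparison. Psme2b was 168, 147 and 168 CPM in immature CD45 KO libraries, against 55.3, 134 and 73.2 CPM in immature control libraries, a log2 fold change of 0.84 ± 0.36 (adjusted p = 0.275, edgeR), from reads that Psme2 can share. Psme1, the alpha subunit, was 552, 389 and 462 CPM in immature CD45 KO libraries, against 409, 289 and 305 CPM in immature control libraries. Its groups overlapped in 1 library each and its log2 fold change was 0.48 ± 0.22 (adjusted p = 0.323, edgeR).

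**Figure D2:**
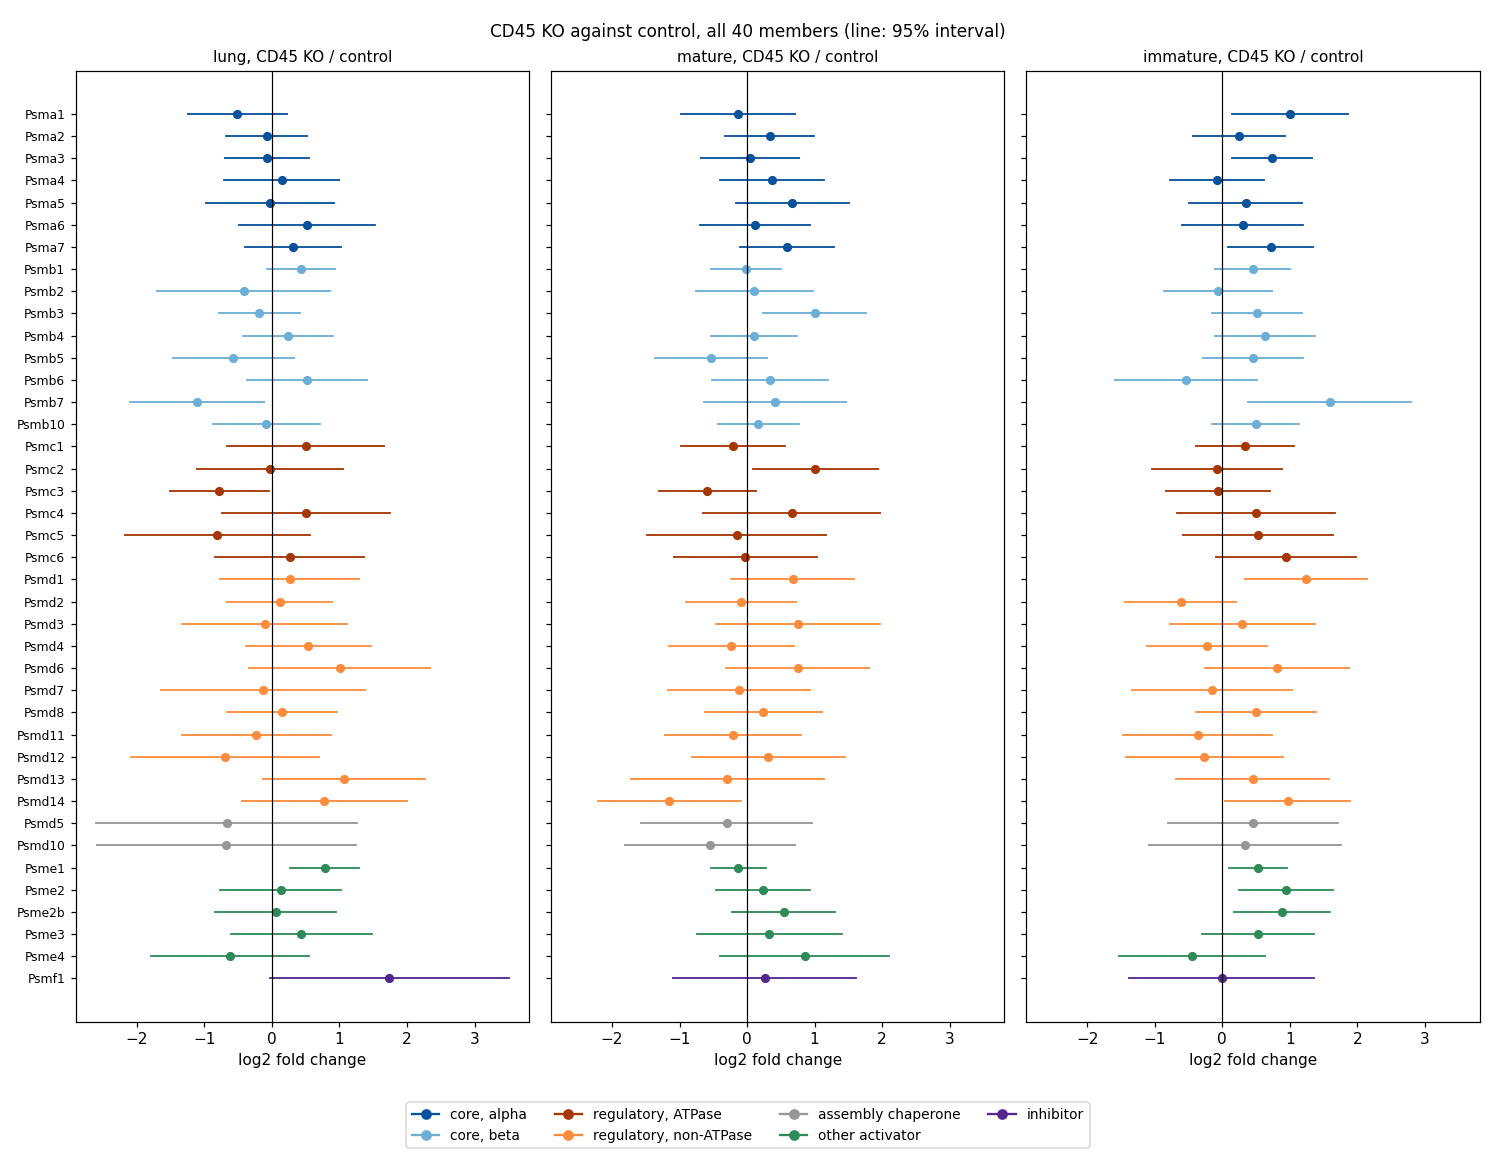
Log2 fold change (CD45 KO over control) of all 40 members in lung, mature and immature ILC2 with 95% intervals, from the fit over genes with a summed count of at least 30, coloured by role. In the immature panel 28 of 40 points lie right of 0 and the median is 0.45; in no panel does a member pass the adjusted threshold.

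In mature ILC2 the 3 tested members with the smallest p were Psmb3, Psmc3 and Psmb5. Psmb3, a non-catalytic beta subunit, was 155, 160.0 and 114 CPM in the libraries labelled mature CD45 KO, against 59.6, 69.4 and 90.2 CPM in mature control libraries, with no overlap. Its log2 fold change was 0.91 ± 0.38 with an adjusted p of 0.403 by edgeR's test, and 0.87 when replicate 1 with that label was left out. Psmc3, an ATPase, was 131, 50.5 and 123 CPM in libraries labelled mature CD45 KO, against 134, 139 and 190.5 CPM in mature control libraries, all CD45 KO libraries lying lower, with a log2 fold change of -0.68 ± 0.37 (adjusted p = 0.599, edgeR). Psmb5 averaged 72.4 ± 11.4 CPM in libraries labelled mature CD45 KO and 114 ± 33.0 CPM in mature control libraries, a log2 fold change of -0.63 ± 0.43 (adjusted p = 0.69, edgeR), with overlap. Over the 40 members the median log2 fold change was 0.14, against 0.050 over all 6306 genes, and 4 members were higher and 3 lower without overlap, where 11.7% of all genes did not overlap. The PA28 genes had log2 fold changes of -0.22 ± 0.21 for Psme1, 0.14 ± 0.36 for Psme2 and 0.45 ± 0.38 for Psme2b, and none passed.

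In lung ILC2 the smallest p among the members was that of Psme1. It was 417, 279 and 324 CPM in lung CD45 KO libraries, against 220.4, 246 and 141 CPM in lung control libraries. Every CD45 KO library was higher than every control library, the log2 fold change was 0.74 ± 0.26, and the adjusted p of 0.116 by edgeR's quasi-likelihood test missed the threshold. Psmc3 was 83.4, 55.8 and 148 CPM in lung CD45 KO libraries, against 187, 149.7 and 149 CPM in lung control libraries, with every CD45 KO library lower and a log2 fold change of -0.81 ± 0.38 (adjusted p = 0.291, edgeR). Psmb7 was also lower in each lung CD45 KO library, with 55.6, 46.5 and 27.0 CPM, against 88.2, 128 and 79.1 CPM in lung control libraries, in the opposite order to immature marrow. Its difference of CD45 effects (lung minus immature) was -2.70 ± 0.79, with an adjusted p of 0.22 by edgeR over 6306 genes. Psmb1, a non-catalytic beta subunit, averaged 316 ± 63.3 CPM in lung CD45 KO and 242 ± 80.6 CPM in lung control libraries, with overlap and an adjusted p of 0.536. Over the 40 members the median was 0.085, against -0.020 over all genes, and 1 member was higher and 4 were lower without overlap, where 13.4% of all genes did not overlap.

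No member's CD45 effect was shown to differ between populations. Of 18 tested members 0 passed in the contrasts lung minus mature (0.313% of all genes passed), lung minus immature (0.365%) and mature minus immature (0% of all genes), with 2, 1 and 1 members at an unadjusted p under 0.05, which 10.1%, 12.5% and 4.91% of all genes tested had. In the fit of 6306 genes 0 of 40 passed in each, where 0.0634%, 0.111% and 0% of all genes did. The DESeq2 Wald test gave 0 in each as well. The smallest adjusted p in these contrasts was that of Psme1, whose log2 effect in lung exceeded that in mature ILC2 by 0.97 ± 0.33 (adjusted p = 0.201, edgeR). For Psma1 the effect in lung minus that in immature ILC2 was -1.50 ± 0.58 (adjusted p = 0.237, edgeR).

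Between lung and marrow ILC2 single members changed, in shares near or under that of all genes tested. In control mice 3 of 18 tested members changed between lung and mature ILC2, where 25.6% of all genes tested did, and 4 of 18 between lung and immature ILC2, where 25.5% did. In CD45 KO mice 1 of 18 changed between lung and mature ILC2 (24.3% of all genes) and 3 of 18 between lung and immature ILC2 (25.3% of all genes). DESeq2's Wald test gave 3, 0, 0 and 0 in these comparisons, and the fit of 6306 genes 3, 3, 0 and 0 of 40 members, where 8.75%, 8.58%, 8.98% and 9.32% of all genes passed. The 4 comparisons share libraries and their values are given side by side. Psme1, Psmb3, Psmc1, Psma1, Psmb10, Psme2 and Psme2b are all the members called. In the fit of 6306 genes, Psmb7 was called only between lung and immature control ILC2. In that comparison Psme1 (adjusted p = 0.0945) and Psmb3 (0.0631) did not pass in this fit by edgeR.

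Psme1 fell in lung control ILC2 relative to both marrow control groups. Lung control libraries had 220.4, 246 and 141 CPM, against 551, 569 and 441 CPM in mature control libraries and 409, 289 and 305 CPM in immature control libraries. All lung control libraries were lower than all marrow control libraries. The log2 fold change (lung over marrow) was -1.36 ± 0.24 against mature (adjusted p = 3.18e-06, edgeR's quasi-likelihood test) and -0.75 ± 0.26 against immature ILC2 (adjusted p = 0.0222). The call against mature ILC2 held without every single library and was -1.32 without mature control replicate 1, the library with neutrophil transcripts. The call against immature ILC2 was lost without immature control replicate 1 (-0.57, adjusted p = 0.185) and without lung control replicate 3 (-0.50, adjusted p = 0.214). That call was also lost by DESeq2's Wald test (adjusted p = 0.0809), and by edgeR with no filter (0.249) and over 6306 genes (0.0945). With CD45 lost, Psme1 was 417, 279 and 324 CPM in lung libraries, against 298, 548 and 439.9 CPM in libraries labelled mature CD45 KO and 552, 389 and 462 CPM in immature CD45 KO libraries, and it overlapped with both. There the log2 fold changes were -0.40 ± 0.22 and -0.48 ± 0.22, with adjusted p-values of 0.207 and 0.101 by edgeR.

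Psme2 and Psme2b fell in lung CD45 KO relative to immature CD45 KO ILC2. Psme2 was 55.6, 93.1 and 81.0 CPM in lung CD45 KO libraries, against 197, 164 and 158 CPM in immature CD45 KO libraries, without overlap. Psme2b was 41.7, 93.1 and 81.0 CPM in lung CD45 KO libraries, against 168, 147 and 168 CPM in immature CD45 KO libraries, also without overlap. Psme2b met the filter on low counts only through marrow libraries, which favoured a lower value in lung. The log2 fold changes were -1.12 ± 0.37 (adjusted p = 0.0178) and -1.09 ± 0.38 (adjusted p = 0.0228) by edgeR, and they cannot count as separate genes for the reason given. Both calls were lost by DESeq2 (adjusted p = 0.101 and 0.118), with no filter on low counts (0.101 and 0.148), in the fit of 6306 genes (0.0573 and 0.0787), and on leaving out replicate 1 of immature CD45 KO, or replicate 1 or 3 of lung CD45 KO, and for Psme2b also replicate 3 of immature CD45 KO. Between lung and mature CD45 KO ILC2 neither passed alone, at -0.81 ± 0.39 and -0.75 ± 0.40, although no lung library overlapped a library labelled mature CD45 KO, and 2 members in place of 1 passed when the pair was summed into 1 gene.

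The 3 PA28 genes together summed to 515, 465 and 486 CPM in lung CD45 KO libraries and 397, 385 and 273 CPM in lung control libraries. In mature marrow the sum was 572, 825 and 686 CPM in libraries labelled CD45 KO and 745, 847 and 632 CPM in control libraries. In immature marrow it was 917, 701 and 788 CPM in CD45 KO libraries and 519.6, 589 and 427 CPM in control libraries. Lung was lower than marrow without overlap in each of the 4 pairs of the same genotype, and CD45 KO was higher than control without overlap in lung and in immature, not in mature ILC2. With total counts and no scaling factor, lung control and immature control libraries overlapped, and the other orders held.

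Genes of the interferon response had the same order of groups as PA28 in part of these comparisons. A list of 11 (Irf1, Igtp, Iigp1, Gbp2, Gbp7, Irgm1, Ifit1, Isg15, Tap1, Psmb8 and Psmb9), all of them in the table, summed to 626, 614 and 526 CPM in lung CD45 KO libraries and 551, 685 and 536 CPM in lung control libraries, with 10 of 11 detected in each group and Ifit1 at 0. It summed to 1596, 1769 and 2235 CPM in libraries labelled mature CD45 KO and 1595, 1721 and 1293 CPM in mature control libraries. It summed to 2218, 2379.7 and 2300.1 CPM in immature CD45 KO libraries and 1526, 1396 and 1659.7 CPM in immature control libraries, with all 11 detected in every marrow group. The list was thus lower in every lung than in every marrow library. PA28 was lower in lung only within a genotype, since every lung CD45 KO library (at least 465 CPM) exceeded the lowest immature control library (427 CPM). The list was also higher in immature CD45 KO than in immature control libraries without overlap, as PA28 was. In lung the genotypes overlapped on this list, where PA28 did not. Its part in the PA28 values was not tested.

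**Figure D3:**
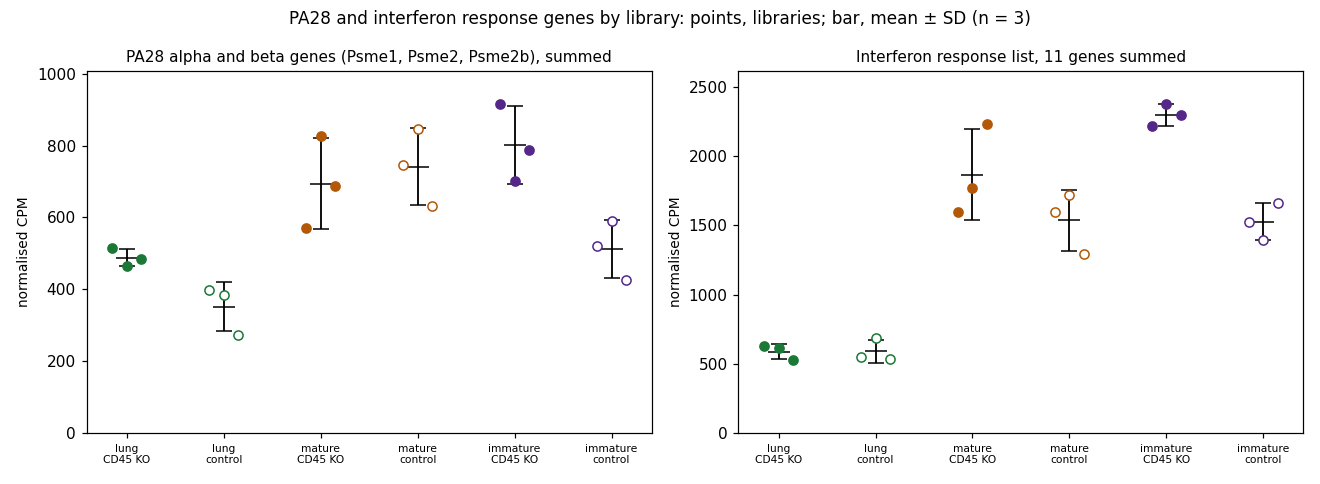
Summed CPM of the PA28 genes Psme1, Psme2 and Psme2b (left) and of the 11 interferon response genes (right) by library in the 6 groups, filled points for CD45 KO and open points for control, with mean ± SD (n = 3). Lung libraries lie at 273 to 515 CPM for PA28, lower than the marrow libraries of the same genotype, and at 526 to 685 CPM for the interferon list, lower than every marrow library.

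Of the immunoproteasome subunits that the rule leaves out, Psmb9 fell in lung relative to both marrow control groups and to mature CD45 KO ILC2, and Psmb8 relative to immature ILC2. Psmb8 did not pass against mature ILC2 in control (-0.63, adjusted p = 0.0502, edgeR) or CD45 KO mice (-0.46, adjusted p = 0.166), nor Psmb9 against immature CD45 KO ILC2 (-1.31, adjusted p = 0.0585). Psmb9 was 22.0, 21.4 and 0 CPM in lung control libraries, against 59.6, 125 and 70.2 CPM in mature control and 66.3, 82.7 and 97.6 CPM in immature control libraries. The count of 0 in lung control replicate 3 allows up to 26.4 CPM. The log2 fold changes of -2.53 ± 0.69 and -2.49 ± 0.68 passed edgeR's test (adjusted p = 0.00298 and 0.0029). Psmb9 met the filter on low counts only through mature marrow libraries and had 0 to 6 counts per lung library. The filter thus favoured a lower value in lung, and the alternatives were not read for Psmb9. Psmb8 averaged 251 CPM in lung control and 440 CPM in immature control libraries, and fell by 0.79 on the log2 scale in both genotypes relative to immature ILC2 (adjusted p = 0.00788 in control and 0.00475 in CD45 KO mice, edgeR). Psmb10, their partner and a member here, was 153, 93.1 and 54.0 CPM in lung CD45 KO libraries, against 71.5, 227 and 264 CPM in libraries labelled mature CD45 KO. These overlapped through replicate 1 of that label. The log2 fold change of -0.99 ± 0.36 passed (adjusted p = 0.0324, edgeR) and was -1.28 without that library. The call was lost without either of the other 2 libraries of that label or without lung CD45 KO replicate 2 or 3 (adjusted p between 0.132 and 0.244). It was also lost by DESeq2's Wald test (adjusted p = 0.177). By edgeR it was lost with no filter (adjusted p = 0.102), over 6306 genes (0.083) and with only the libraries compared (0.0744). In control mice Psmb10 was 99.2, 107 and 114 CPM in lung libraries, against 179, 180.4 and 201 CPM in mature control libraries, all lower in lung, with a log2 fold change of -0.80 ± 0.36 (adjusted p = 0.0965, edgeR).

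**Figure D4:**
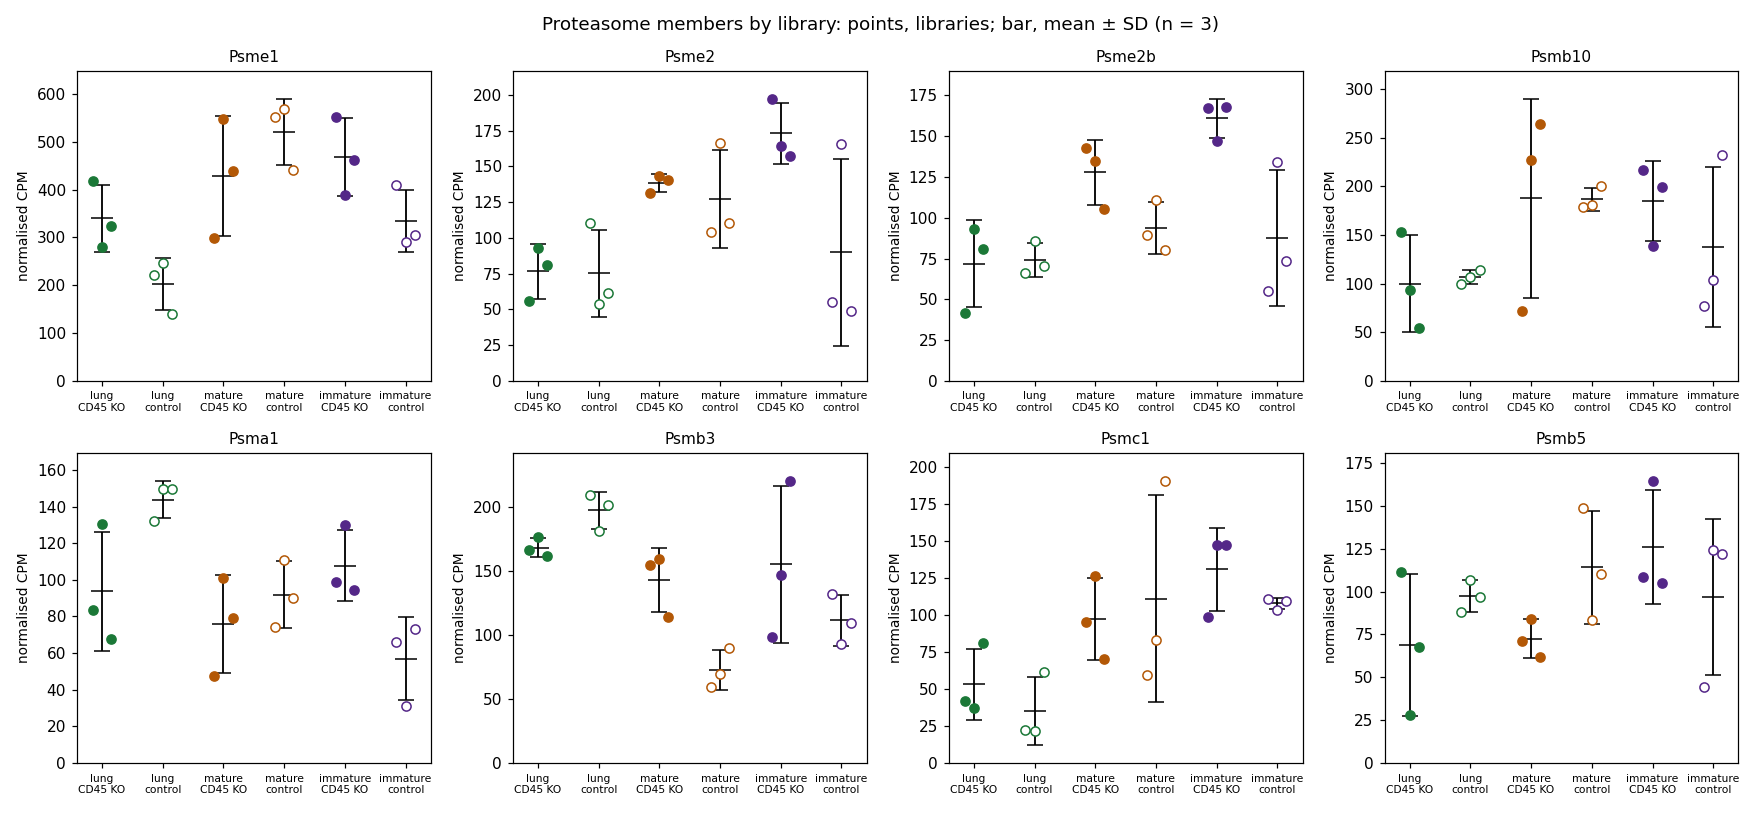
Normalised CPM of 8 members by library in the 6 groups, filled points for CD45 KO and open points for control, with mean ± SD (n = 3). Psme1 is lowest in the lung control libraries, at 141 to 246 CPM, and Psmb3 in the mature control libraries, at 59.6 to 90.2 CPM.

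In the core particle, Psmb3 rose in lung control ILC2 relative to both marrow control groups, and Psma1 and, in the fit of 6306 genes, Psmb7 relative to immature control ILC2 alone. Psmb3 was 209, 182 and 202 CPM in lung control libraries, against 59.6, 69.4 and 90.2 CPM in mature control libraries and 133, 93.0 and 109.8 CPM in immature control libraries. Lung was higher than both without overlap. The log2 fold change was 1.38 ± 0.36 against mature (adjusted p = 0.00181, edgeR) and 0.82 ± 0.32 against immature ILC2 (adjusted p = 0.0452), and the second call was lost without any 1 of 5 of the 6 libraries compared. DESeq2's Wald test lost this second call too (adjusted p = 0.172). By edgeR it was lost with no filter (adjusted p = 0.101), over 6306 genes (0.0631) and with a replicate block (0.0536). For Psmb3 in CD45 KO mice the log2 fold changes were 0.25 ± 0.31 and 0.14 ± 0.31, and neither passed. Psma1 was 132, 149.7 and 149 CPM in lung control libraries, against 66.3, 31.0 and 73.2 CPM in immature control libraries, all higher in lung. Its log2 fold change was 1.35 ± 0.42 (adjusted p = 0.00982, edgeR), and 1.04 with an adjusted p of 0.0898 without immature control replicate 2. By DESeq2 its adjusted p was 0.0565, and against mature control ILC2 it did not pass (0.64 ± 0.38, adjusted p = 0.234, edgeR). Psmb7 was 88.2, 128 and 79.1 CPM in lung control libraries, against 22.1, 31.0 and 12.2 CPM in immature control libraries, and its log2 fold change of 2.15 ± 0.57 passed in the fit of 6306 genes (adjusted p = 0.00412, edgeR), from at most 3 counts in each immature control library. Against mature control ILC2 Psmb7 did not pass (1.05 ± 0.49, adjusted p = 0.2, edgeR). Psmb2, a non-catalytic beta subunit, was 0, 46.5 and 40.5 CPM in lung CD45 KO libraries, against 107, 67.4 and 96.8 CPM in libraries labelled mature CD45 KO and 69.0, 112 and 105 CPM in immature CD45 KO libraries, without overlap. Its log2 fold changes of -1.39 ± 0.56 and -1.50 ± 0.55 did not pass over 6306 genes (adjusted p = 0.109 and 0.0648, edgeR). In control mice it was 0, 74.9 and 52.8 CPM in lung libraries, against 74.5, 69.4 and 110.3 CPM in mature control libraries, with overlap, and the counts of 0 in replicate 1 of both lung groups allow up to 41.7 CPM (CD45 KO) and 33.1 CPM (control).

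In the regulatory particle 1 of the tested members passed between lung and marrow. Psmc1, an ATPase, was 22.0, 21.4 and 61.6 CPM in lung control libraries, against 59.6, 83.3 and 190.5 CPM in mature control and 111, 103 and 109.8 CPM in immature control libraries. Without CD45 it was 41.7, 37.2 and 81.0 CPM in lung libraries, against 98.6, 147 and 147 CPM in immature libraries. Lung was lower than immature marrow without overlap in both genotypes, while 1 lung control library exceeded the lowest mature control library. The log2 fold changes were -1.67 ± 0.51 (lung over mature control, adjusted p = 0.00822), -1.52 ± 0.51 (lung over immature control, 0.0182) and -1.33 ± 0.46 (lung over immature CD45 KO, 0.0229), all by edgeR's test. Leaving out 1 library ended these calls in 2, 2 and 4 cases. With no filter on low counts all were lost by edgeR (adjusted p = 0.0538, 0.117 and 0.0956). By DESeq2's Wald test both calls against immature ILC2 were lost (adjusted p = 0.0616 in control and 0.106 in CD45 KO mice). Without mature control replicate 3 the call against mature control was -0.94 with an adjusted p of 0.349. The counts were 2 to 7 per lung library, and Psmc1 met the filter on low counts only through marrow libraries. The filter thus favoured a lower value in lung. In the fit of 6306 genes both calls in control mice held, and the call in CD45 KO mice did not (adjusted p = 0.0542, edgeR).

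The summed regulatory particle was 968 ± 57.2 CPM in lung CD45 KO libraries, against 1136 ± 141 CPM in libraries labelled mature CD45 KO and 1207 ± 63.4 CPM in immature CD45 KO libraries. In control mice it was 939 ± 36.9 CPM in lung, against 1139 ± 181 CPM in mature and 1031 ± 47.9 CPM in immature libraries. With TMM factors lung was lower than marrow without overlap in all 4 pairs. With DESeq2 size factors this held in 3 of the 4 pairs, not for lung and mature CD45 KO, and with total counts alone only the pair of lung and immature CD45 KO remained apart. Over the 40 members the median log2 fold change was -0.098 (lung over mature control), -0.061 (lung over immature control), -0.27 (lung over mature CD45 KO) and -0.40 (lung over immature CD45 KO), against -0.037, -0.060, -0.11 and -0.13 over all 6306 genes. Members whose groups did not overlap numbered 8, 9, 8 and 16 of 40, where 24.9%, 25.5%, 23.9% and 26.2% of all genes did not overlap. Of the 16 in the last comparison, 12 were lower in lung CD45 KO, 5 of them in the regulatory particle (Psmc1, Psmc2, Psmc5, Psmc6 and Psmd14), and Psmb1, Psmb4, Psmb6 and Psmd8 were higher.

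**Figure D5:**
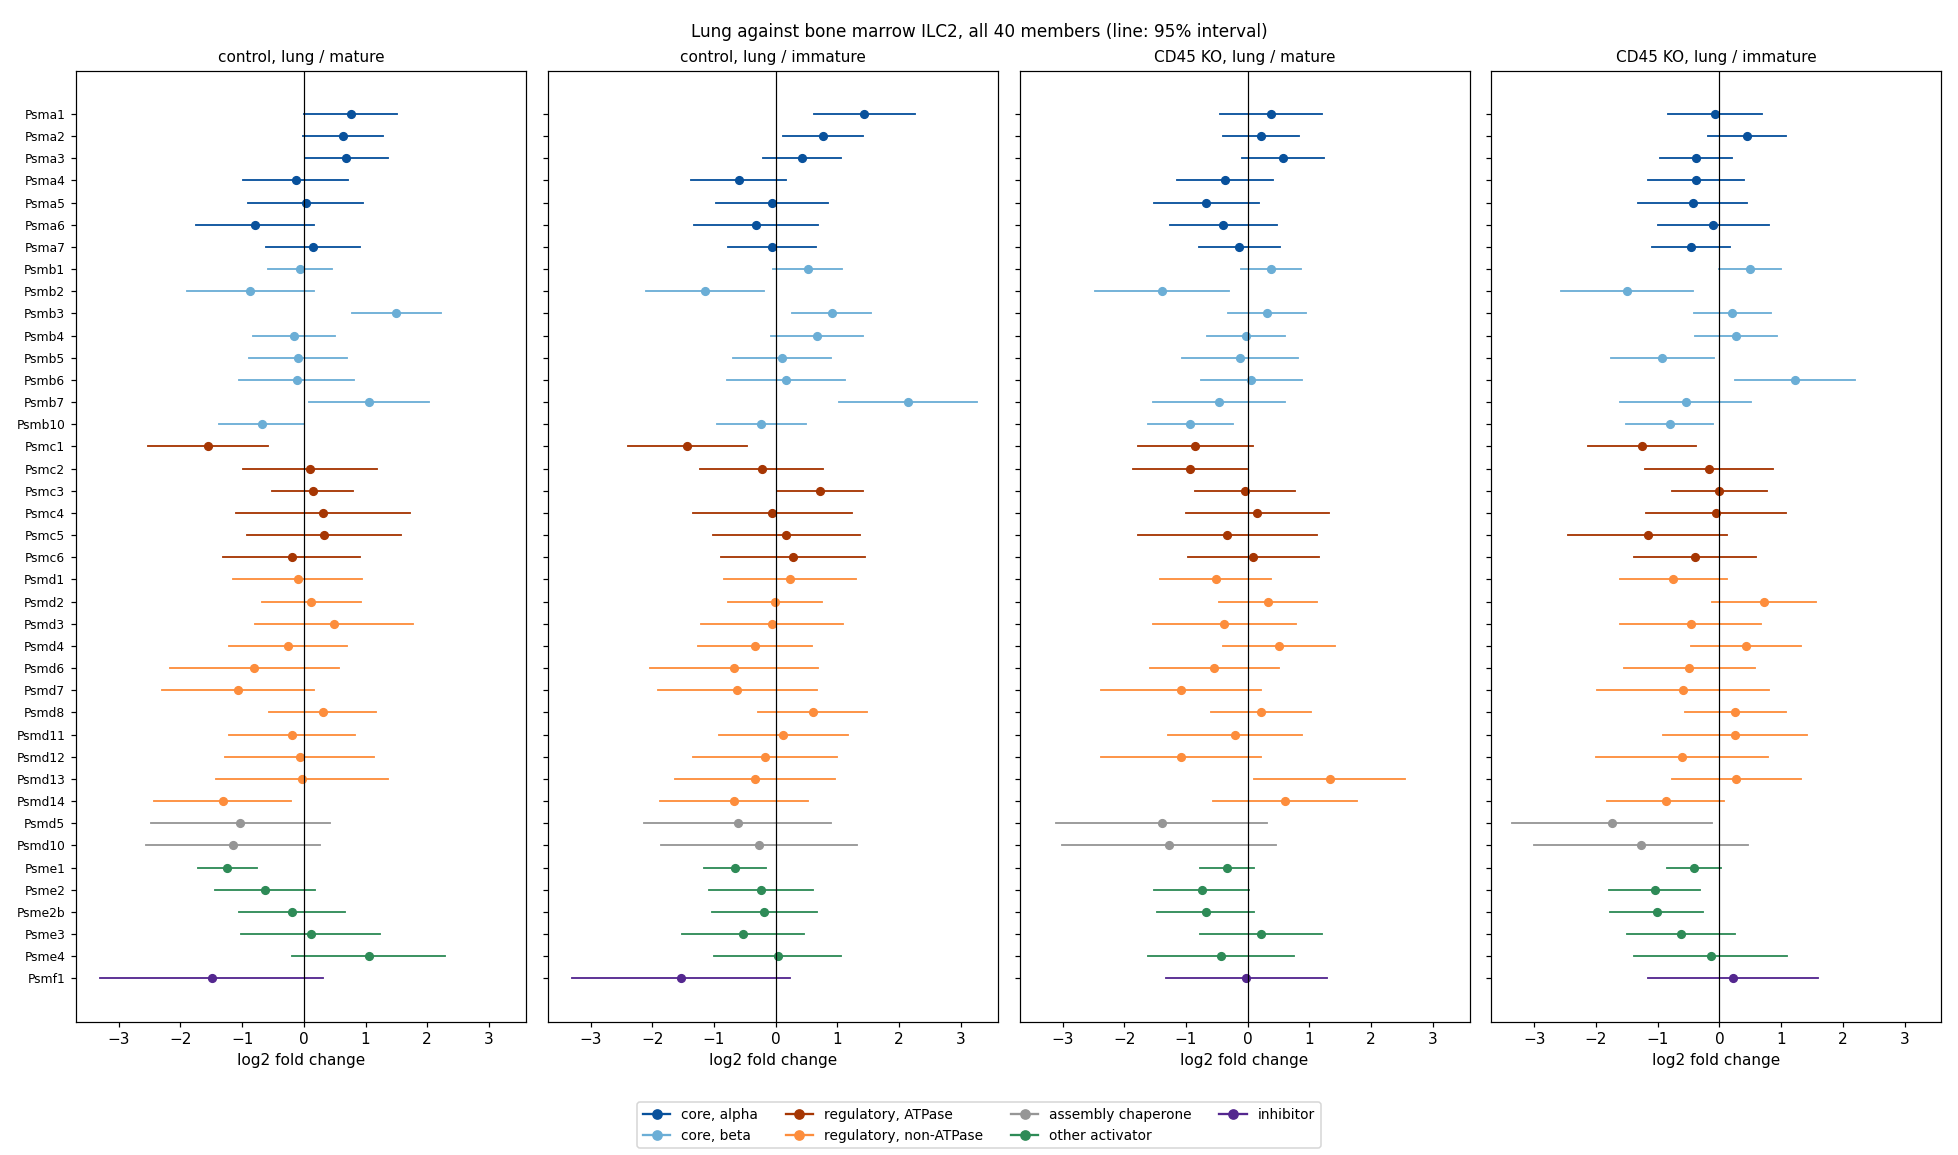
Log2 fold change (lung over marrow) of all 40 members with 95% intervals in control mice (2 left panels) and CD45 KO mice (2 right panels), from the fit over genes with a summed count of at least 30, coloured by role. Psme1 and Psmc1 lie left of 0 in every panel, and Psmb3 lies clear of 0 on the right only in the control panels.

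Mature and immature marrow ILC2 gave no member past the threshold. In control mice 0 of 18 passed, where 0.0522% of all genes did, with 3 members at an unadjusted p under 0.05, all higher in mature ILC2 (Psme1, Psmb1 and Psmb4), where 5.38% of all genes tested had such a p, and 0 by DESeq2. Psme1 was 551, 569 and 441 CPM in mature control libraries, against 409, 289 and 305 CPM in immature control libraries, without overlap, a log2 fold change of 0.62 ± 0.22 (adjusted p = 0.858, edgeR). In CD45 KO mice 0 of 18 passed, where 0.678% of all genes did, with 2 members at an unadjusted p under 0.05, both lower in mature ILC2 (Psma3 and Psmb5), where 8.04% of all genes tested had such a p, and 0 by DESeq2. Psma3 was 59.6, 160.0 and 106 CPM in libraries labelled mature CD45 KO, against 237, 190.4 and 242 CPM in immature CD45 KO libraries, without overlap. Its log2 fold change was -0.96 ± 0.30 (adjusted p = 0.141, edgeR). Members whose groups did not overlap numbered 9 of 40 in control and 8 of 40 in CD45 KO mice, where 10.2% and 10.8% of all genes did not overlap. In the fit of 6306 genes 0 of 40 members passed in either genotype, where 0.0476% and 0.19% of all genes did.

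The rest of the ubiquitin-proteasome pathway was read from a list of 50 genes for assembly, associated factors, the immunoproteasome, transcription of proteasome genes, ubiquitin and its activation, shuttles and unfoldase, and conjugation. Of these, 46 were in the table and 18 were tested; Psmd5 and Psmd10 are members as well. None of these 18 passed for the loss of CD45 in any population or between mature and immature ILC2. Between lung and mature ILC2, 1 was higher and 2 were lower in control mice and likewise 1 was higher and 2 lower in CD45 KO mice. Between lung and immature ILC2, 1 was higher and 3 were lower in control mice and 1 was higher and 1 lower in CD45 KO mice. These are shares of the 18 under those of all genes tested, of which 24.3% to 25.6% were called in these comparisons. Ubb, a polyubiquitin gene, was higher in lung in all 4 comparisons. It averaged 1449 ± 129 CPM in lung CD45 KO libraries, against 731 ± 91.3 CPM in libraries labelled mature CD45 KO, a log2 fold change of 0.97 ± 0.15 (adjusted p = 7.55e-08, edgeR). Rps27a, which encodes ubiquitin fused to a ribosomal protein and whose count is uncertain since ribosomal protein genes have near-identical copies, fell in lung in control mice, with log2 fold changes of -0.33 ± 0.12 and -0.40 ± 0.12. Ube2n, a conjugating enzyme for lysine-63 chains, was lower in lung relative to mature CD45 KO ILC2 (-1.36 ± 0.47, adjusted p = 0.0243, edgeR). Ube2n reached at most 70.3 CPM in a lung library and met the filter on low counts only through marrow libraries, those labelled mature CD45 KO among them. The filter thus favoured a lower value in lung, and the alternatives were not read for Ube2n. The lower genes besides Rps27a and Ube2n were Psmb8 and Psmb9.

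The remaining members were under the filter on low counts or gave no call. The assembly chaperones Psmd5 and Psmd10 and the inhibitor Psmf1 had group means of at most 50.5 CPM, near the limit that 3 counts allow, and each had a count of 0 in at least 1 lung library. Psme3, a nuclear activator, and Psme4, an activator known from DNA repair and sperm development, overlapped between CD45 KO and control in lung and immature ILC2. Psme4 was 71.5, 42.1 and 44.0 CPM in libraries labelled mature CD45 KO, against 29.8, 27.8 and 30.1 CPM in mature control libraries, the CD45 KO libraries lying higher, from 2 or 3 counts per control library. Over all 40 members, the log2 fold changes for the loss of CD45 ranged from -0.62 to 1.59 in immature, from -1.15 to 1.01 in mature and from -1.11 to 1.74 in lung ILC2. Of the regulatory particle 4 of 17 members were tested, against 11 of 15 of the core, so that tests speak for fewer regulatory than core subunits.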

How the data were processed

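Poly(A)-primed, molecularly barcoded RNA libraries of sorted ILC2 were analysed from the table of whole-number counts per gene that the authors deposited, with 18 libraries in 6 groups of 3. Per the submitters' processing notes, STAR and mm10 were used; for the counting tool, annotation, strand and barcode collapsing, none is given in the sources used here. The labels put no animal on a library. Counts were tested with edgeR 4.0.16 (R 4.3.3): TMM factors, filterByExpr with a minimum count of 10, 6 group means in a quasi-likelihood fit, 12 contrasts and Benjamini-Hochberg adjustment over the 1916 genes kept, at a threshold of 0.05. The SE was taken as the size of the log2 fold change over the root of F. A second fit used the 6306 genes with a summed count of at least 30, so as to hold all 40 members. CPM are counts divided by the TMM-scaled library total. DESeq2 1.42.0, other scalings and filters, a replicate block and leaving out each library were alternatives. The fitting code was tested on simulated data. Named were the members called in any contrast, the 3 tested members with the smallest p in each CD45 comparison, the members nearest the count threshold, and always Psmb5, Psmb6, Psmb7, Psmb10, Psme1, Psme2, Psmd14 and Psmd4. Any other member, Psmb2 and Psme4 among them, was chosen after its values were seen. The members and lists were chosen with earlier results of these data known, and support nothing by their choice. Totals of 68077 to 122250 counts limit the precision, and limits from 3 counts cover counting error only. No p was computed for sums over members. Gene positions are from GENCODE M21 and start regions from RefSeq, both on GRCm38. Some genes of the pathway and marker lists are not reported here.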

Additional observations from a re-analysis of the deposited data

Results flagged for a closer look

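The summed level of the 40 members differed between mature and immature marrow ILC2 in opposite directions in the genotypes. In CD45 KO mice it was 3925 ± 306 CPM in libraries labelled mature CD45 KO and 4267 ± 88.6 CPM in immature CD45 KO libraries (mean ± SD, n = 3), a log2 difference of -0.12 (mature minus immature), with every mature library lower. In control mice it was 3847 ± 136 CPM in mature and 3298 ± 215 CPM in immature libraries, a log2 difference of 0.22, with every mature library higher. The difference between genotypes was not tested. In CD45 KO mice the highest mature library was at 4179.2 CPM and the lowest immature library at 4179.7 CPM, and with total counts in place of TMM factors these groups overlapped.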

How the results depend on the processing

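The counts of 0 members for the loss of CD45, between mature and immature ILC2 and for the differences of CD45 effects stayed at 0 under the alternatives run, except that leaving out 1 library gave 0 to 1 for the loss of CD45 in immature ILC2 and 0 to 1 between mature and immature CD45 KO ILC2. The count of 3 between lung and mature control ILC2 stayed at 2 to 3. Between lung and immature control ILC2 the count of 4 was 2 with no filter on low counts and 0 by DESeq2's Wald test, and 2 to 4 leaving out 1 library. Between lung and mature CD45 KO ILC2 the count of 1 was 0 with no filter, by DESeq2, with only the libraries compared and with genes of a summed count of at least 30, 2 with Psme2 and Psme2b summed, and 0 to 1 leaving out 1 library. Between lung and immature CD45 KO ILC2 the count of 3 was 0 with no filter, by DESeq2 and with genes of a summed count of at least 30, and 1 to 4 leaving out 1 library. With total counts and no factor, the summed core of immature CD45 KO libraries was 1919 CPM and the summed regulatory particle of lung control libraries 1011 CPM. The causes of these changes were not tested.

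Leaving out 1 library, the differences in the log2 ratio of core over regulatory counts ranged from -0.11 to 0.35 (mature CD45 KO minus control), from -0.098 to 0.35 (lung minus mature, CD45 KO), from -0.20 to 0.25 (mature minus immature, CD45 KO), from -0.41 to 0.040 (CD45 effect in lung minus mature) and from -0.29 to 0.16 (mature minus immature effect). Leaving out mature marrow replicate 1 with the CD45 KO label gave, for these 5, 0.35, -0.098, 0.25, -0.41 and 0.16. The other ranges were -0.16 to 0.029 (lung CD45 KO minus control), 0.072 to 0.34 (immature CD45 KO minus control), 0.19 to 0.38 (lung minus mature, control), 0.29 to 0.56 (lung minus immature, control), 0.055 to 0.25 (lung minus immature, CD45 KO), -0.023 to 0.25 (mature minus immature, control) and -0.41 to -0.14 (lung minus immature effect). The particles and their ratio were also defined otherwise, as with Psmb10 left out of the core. The CD45 difference then ranged from 0.063 to 0.11 in mature, 0.053 to 0.29 in immature and -0.21 to 0.060 in lung ILC2. In control mice lung exceeded mature ILC2 by 0.18 to 0.55 and immature ILC2 by 0.26 to 0.55. In CD45 KO mice it did so by 0.003 to 0.25 and 0.028 to 0.29. Mature minus immature ILC2 in either genotype and the mature minus immature effect changed sign. Among the 6 members per population rerun without each library, log2 fold changes for CD45 that changed sign were those of Psmb10 in mature (-0.20 to 0.39) and lung ILC2 (-0.45 to 0.15) and of Psme2 in lung (-0.10 to 0.46), none of them called. Psma3 in mature ILC2 was -0.049 over 1916 and 0.043 over 6306 genes. With no filter, the median of all genes moved by at most 0.134 on the log2 scale.

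Same-numbered replicates correlated between -0.0888 and 0.0755 in their deviations from the group means. At this depth counting error can hide a shared origin, so that a pairing by number is neither shown nor excluded. With the replicate block the counts of members were 3, 3, 1 and 3 in the lung comparisons and 0 in the others, and Psmb3 between lung and immature control ILC2 had an adjusted p of 0.0536 by edgeR. At this depth 18 of 40 members passed the filter on low counts.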
